A study of Sus scrofa with 18 samples.

Results

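Backfat of Ningxiang pigs at 360 days of age (360d) was compared with backfat at 60 days of age (60d), the last and the first of 6 sampled stages, so that the comparison spans the growth of the depot from the piglet to the mature pig. It rests on 6 of the 18 libraries of the series, 3 at 360d and 3 at 60d, chosen by their stage label, and on the 19470 of 27883 loci in the deposited table with at least 0.5 FPKM (read pairs scaled by transcript length and library size) in 3 or more of the 18 libraries. The 12 libraries of 120d, 180d, 240d and 300d entered the same fit and are described where they show the course between the endpoints.

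All pigs of both ages were described as castrated males of the Ningxiang breed, an indigenous Chinese pig with a high fat content, kept under the same standard conditions without any treatment. Fat was taken at the thickest point of the shoulder, and RNA depleted of ribosomal RNA was sequenced from 1 library per pig. The 3 pigs of a stage were full sibs, and pigs of different stages had a single parent in common, so litter and age cannot be told apart and p-values measure the spread between litter mates. The study took the fat soon after slaughter and froze it at once, and the order of sampling was not given in the sources used here.

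White fat stores triglyceride in adipocytes, which take up fatty acids from the blood or build them from glucose and acetate, and in the pig this tissue is the main site of fatty acid synthesis. Fat cells also release hormones such as leptin and adiponectin. Around them lie collagen fibres, fibroblasts and adipocyte progenitors, vessels and macrophages, whose shares change as fat cells enlarge.

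The 6 libraries held 74840484 to 84236689 counts at 360d and 75123708 to 77180515 counts at 60d. Library 3 of 360d stood apart, since loci annotated with the RNA family RF00017 together took 10.2% of its counts. The share was 3.0% and 3.1% in the other 360d libraries and 1.55% to 1.88% at 60d. The summed level of 4 Y-linked loci was 197, 203 and 145 CPM (counts scaled to library size, with TMM factors between libraries) at 360d, against 0.217, 265 and 0.779 CPM at 60d. Libraries 1 and 3 of 60d were thus nearly without Y-linked RNA, which goes against the description as males, and so were 5 libraries of the middle stages. An X-linked locus annotated with the RNA family RF01881 had 39.3 and 36.5 FPKM in those 60d libraries, 21.1 FPKM or more in the 5 others, and at most 0.067 FPKM in each of the remaining 11 libraries, 3 of 360d among them. The labels do not give the reason. Libraries of low Y-linked level occurred at 60d and not at 360d, so this difference is partly confounded with age. Calls that were lost without library 3 of 360d or with a covariate for the Y-linked level are named below or counted by list. Where a list gives counts alone, a called member without such a remark may be among those lost. The tissue label was borne out by the adipocyte markers ADIPOQ, PLIN1, FABP4, CIDEC, LIPE and LPL, which summed to 9320, 12320 and 13880 CPM at 360d, against 13510, 11630 and 12890 CPM at 60d. Skeletal muscle markers summed to 16.8, 11.7 and 11 CPM at 360d, against 19.3, 121 and 17.3 CPM at 60d, which sets library 2 of 60d apart.

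Between the endpoints, 597 loci were called higher at 360d (3.07% of the loci tested) and 398 lower (2.04%), 995 in all (5.11%). A call required an adjusted p of at most 0.05 in edgeR's quasi-likelihood test, with Benjamini-Hochberg adjustment over all loci, and a fold change of at least 2-fold either way, which is 1 on the log2 scale. The adjusted p alone was met by 1298 loci higher and 1014 lower at 360d. Among the calls were 436 protein-coding loci higher and 178 lower, whereas assembled loci without a transcript type gave 136 higher and 204 lower calls. The median size of a called change was 1.49 on the log2 scale for loci higher at 360d and 1.45 for loci lower, and 142 and 91 loci exceeded 2 on that scale. All 3 libraries of 360d lay above all 3 of 60d in 577 of the 597 loci called higher and below them in 381 of the 398 called lower, against 15.6% of all tested loci in either direction.

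The balance of the 2 directions was not the same in every fit. With RLE, another scaling of the counts, edgeR called 611 loci higher and 393 lower. With limma on log2(FPKM + 0.1), where the FPKM values were used as deposited, 330 loci were called higher and 763 lower at 360d, the median log2 fold change over all loci being -0.19 there, against -0.01 in edgeR. With a pseudocount of 1, 182 were called higher and 188 lower. These limma splits differ in balance from that of edgeR. Scaling, pseudocount and test differ together between the limma and edgeR fits, so the part of each was not tested. Without library 3 of 360d, 341 loci (1.75%) were called higher and 162 (0.832%) lower, of which 310 and 144 were among the calls above, and all 995 called loci kept their direction. With the Y-linked covariate, 359 (1.84%) were called higher and 288 (1.48%) lower, of which 302 and 211 were among the calls above, and again all kept their direction.

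**Figure D1:**
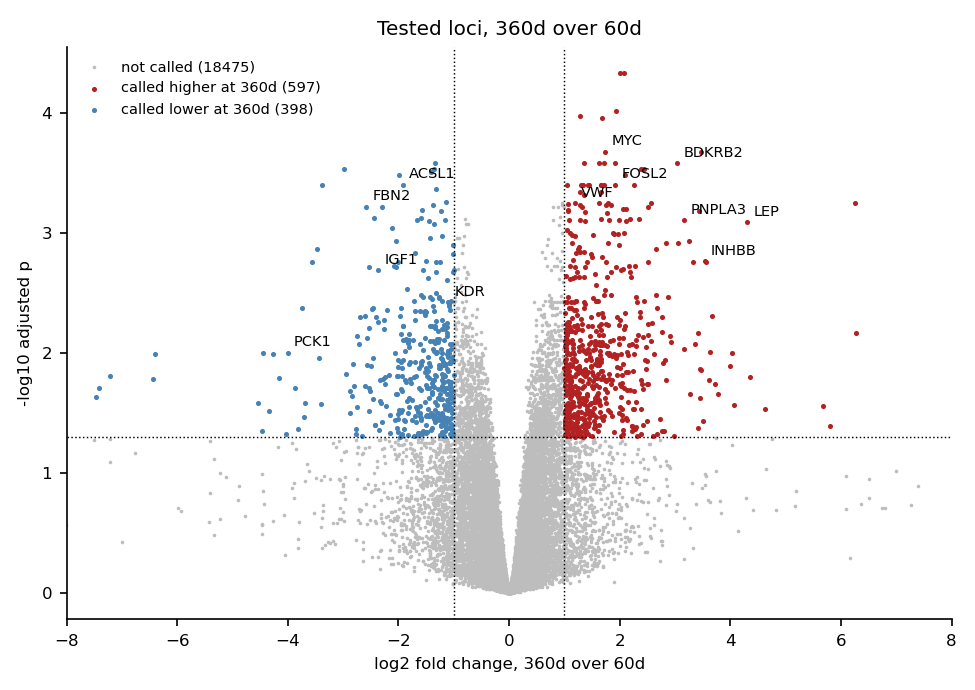
Each point is a tested locus, with the log2 fold change of 360d over 60d on the horizontal axis and -log10 of the adjusted p (edgeR) on the vertical axis; red and blue points are loci called higher and lower at 360d, grey points are not called, dotted lines mark the thresholds, and 13 loci beyond the horizontal axis are not drawn. There are 597 red and 398 blue points, with LEP (log2 fold change 4.3) far to the right and PCK1 (-4.0) far to the left.

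The change of largest size among the called protein-coding genes that carried a single symbol, averaged 1 FPKM or more at the higher age and had no overlap of libraries was that of LEP (chromosome 18, 20064049 to 20123962, assembly Sscrofa11.1), which encodes leptin, the hormone by which fat mass is signalled to the brain. It had 297, 321 and 538 CPM at 360d, against 14.5, 25.8 and 18.3 CPM at 60d. The lowest 360d library thus held over 10 times the level of the highest 60d library (log2 fold change 4.3, SE 0.61, adjusted p = 0.000809).

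INHBB (chromosome 15, 30996208 to 31004861), which encodes the beta B subunit of activin B and inhibin B, had 59.2, 44.1 and 48.5 CPM at 360d, against 9.42, 1.35 and 2.32 CPM at 60d (log2 fold change 3.54, SE 0.56, adjusted p = 0.0017). PNPLA3 (chromosome 5, 5075434 to 5092642), a lipid droplet enzyme that acts on triglyceride, had 60.0, 34.2 and 70.8 CPM at 360d, against 4.97, 8.11 and 5.33 CPM at 60d (log2 fold change 3.16, SE 0.44, adjusted p = 0.000782). Every 360d library stood over 4-fold above the highest 60d library in both genes, while the 60d libraries of INHBB differed among themselves by a wider factor than those of PNPLA3.

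Further genes were among the 12 largest rises, and they are not given in order of size. MOCOS, which activates molybdenum enzymes such as xanthine dehydrogenase, had 9.12, 18.5 and 35.6 CPM at 360d, against 1.73, 1.45 and 2.7 CPM at 60d (log2 fold change 3.42, SE 0.47, adjusted p = 0.00066). OSM, a cytokine of the interleukin 6 family, had 1.82, 1.37 and 4.53 CPM at 360d, against 0.293, 0.0742 and 0.352 CPM at 60d (log2 fold change 3.42, SE 0.68, adjusted p = 0.00676). BDKRB2, a receptor of bradykinin, had 9.4, 11.8 and 14.8 CPM at 360d, against 1.4, 1.25 and 1.73 CPM at 60d (log2 fold change 3.04, SE 0.34, adjusted p = 0.00026). The bradykinin receptor was the tightest of the 3, with a spread under 2-fold within each age.

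Next in size came ROBO3, a guidance receptor (3.36 on the log2 scale), UCHL1, a deubiquitinating enzyme (3.06), FIBIN, a secreted protein (2.9), GALNT15, which starts O-linked sugar chains (2.84), and ISM1, a secreted protein (2.78). GALNT15 was the most abundant of them in CPM, with 294, 300.2 and 444 CPM at 360d, against 44, 43.2 and 58.1 CPM at 60d (adjusted p = 0.00121). FIBIN was highest in library 3, with 4.14, 8.99 and 32.8 CPM at 360d, against 2.79, 1.73 and 1.61 CPM at 60d, and its log2 fold change was 1.69 (adjusted p = 0.0327) without that library.

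Among the genes that fell, SAL1 (chromosome 1, 253638015 to 253642866), which encodes salivary lipocalin, a carrier of small hydrophobic molecules in the pig, changed most. It had 18.2, 4.26 and 4.67 CPM at 360d, against 116, 342 and 64.8 CPM at 60d (log2 fold change -4.27, SE 0.92, adjusted p = 0.0101). The 60d libraries of SAL1 differed over 5-fold among themselves, and the absence of overlap between the ages was a condition of its choice. Without library 3 of 360d its adjusted p was 0.0563.

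PCK1 (chromosome 17, 57930356 to 57938817), the cytosolic phosphoenolpyruvate carboxykinase that in fat supplies glycerol 3-phosphate for triglyceride, had 17.3, 38 and 36.6 CPM at 360d, against 411, 292 and 774 CPM at 60d (log2 fold change -4.0, SE 0.86, adjusted p = 0.0099). FBN2 (chromosome 2, 131150565 to 131370533), a fibrillin of the microfibrils of growing tissues, had 2.39, 5.87 and 5.27 CPM at 360d, against 21.2, 31 and 28.9 CPM at 60d (log2 fold change -2.58, SE 0.34, adjusted p = 0.000601). PEG10, an imprinted gene derived from a retrotransposon, had 1.93, 3.9 and 6.17 CPM at 360d, against 18.9, 22.2 and 32.2 CPM at 60d (log2 fold change -2.61, SE 0.49, adjusted p = 0.0049). FBN2 was called under every alternative that was run, whereas PCK1 and PEG10 had log2 fold changes of -3.24 and -2.46 (adjusted p = 0.0504 and 0.163) when the libraries with low Y-linked levels were left out. That setting keeps 1 library of 60d, and most called genes, such as PNPLA3 (2.77, adjusted p = 0.0866), missed the threshold there.

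BMX, a tyrosine kinase of the Tec family carried on chromosome X, had 3.1, 3.0 and 1.39 CPM at 360d, against 19.3, 21.2 and 8.3 CPM at 60d (log2 fold change -2.7, SE 0.51, adjusted p = 0.00496). PGLYRP2, an amidase that cuts bacterial peptidoglycan, had 6.1, 3.95 and 3.88 CPM at 360d, against 25.7, 54 and 27.7 CPM at 60d (log2 fold change -2.95, SE 0.69, adjusted p = 0.0148). SPAG17, a protein of the central pair of cilia, had 4.08, 5.22 and 3.18 CPM at 360d, against 42.8, 38.7 and 53.4 CPM at 60d (log2 fold change -3.43, SE 0.75, adjusted p = 0.011). That no 360d library of these genes reached a 60d library was a condition of their choice. PGLYRP2 and SPAG17 had adjusted p-values of 0.0707 and 0.0579 without library 3 of 360d.

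The other large falls were those of GZMA, a protease of cytotoxic lymphocytes (-3.4 on the log2 scale), GABRR2, a GABA receptor subunit (-2.61), HAP1, a partner of huntingtin (-2.57), VWCE, a secreted protein with von Willebrand factor C domains (-2.54), and SLC12A5, a potassium chloride cotransporter (-2.51). HAP1 had 5.03, 4.33 and 4.91 CPM at 360d, against 30.5, 31.3 and 22.8 CPM at 60d (adjusted p = 0.0126). None of these 5 was called without library 3 of 360d, the adjusted p-values lying between 0.0544 in HAP1 and 0.0996 in SLC12A5. With the Y-linked covariate VWCE and SLC12A5 were not called either (adjusted p = 0.0659 and 0.125). GZMA was scarce at both ages, with 0.23, 0.324 and 0 CPM at 360d, against 0.778, 3.9 and 1.27 CPM at 60d (adjusted p = 0.0266).

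**Figure D2:**
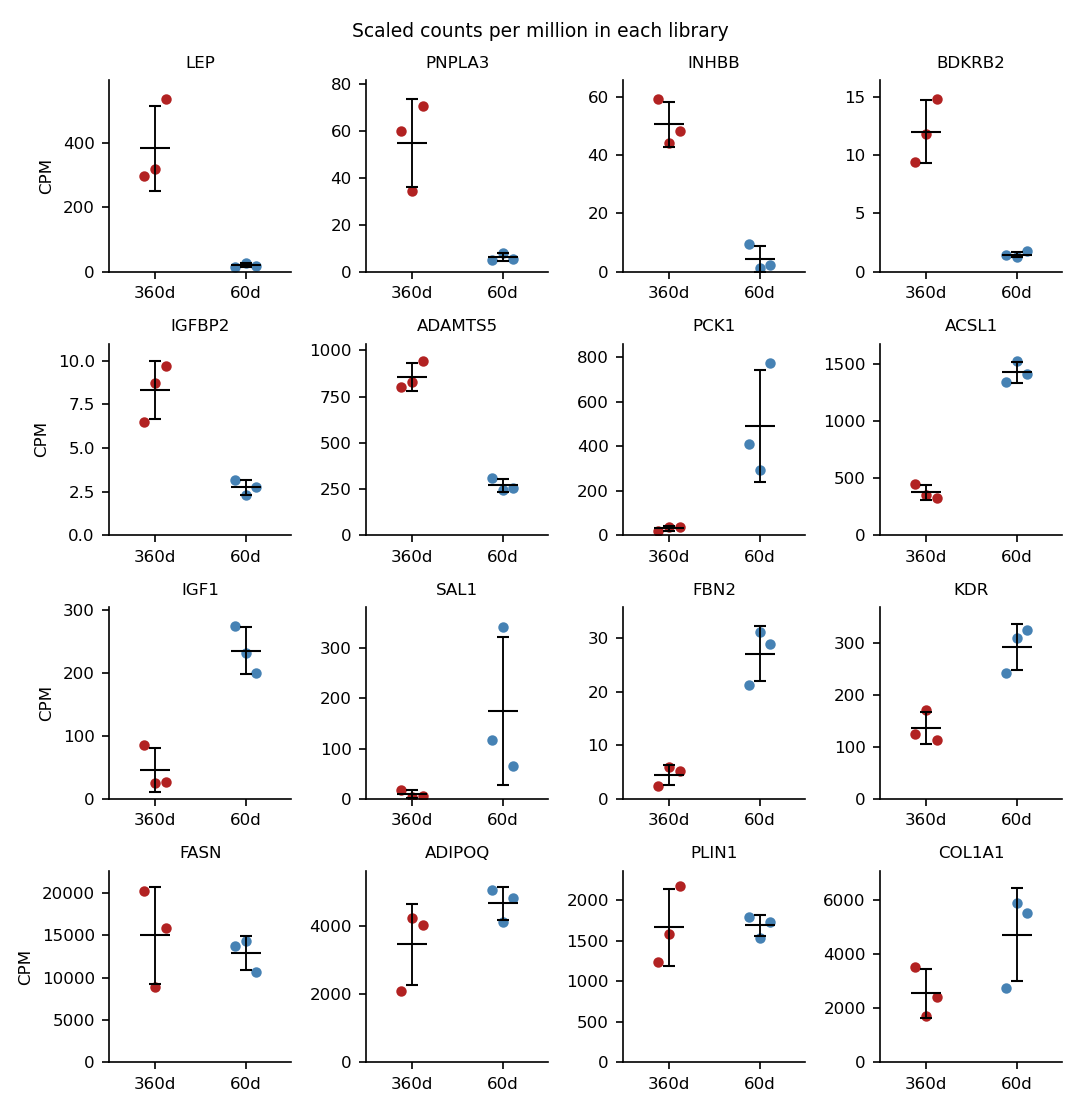
Scaled counts (CPM, vertical axes, each starting at 0) in each of the 3 libraries at 360d (red, left) and the 3 libraries at 60d (blue, right) for 16 genes; black bars give the mean and SD. In the first 6 genes, from LEP to ADAMTS5, all red points lie above all blue points, from PCK1 to KDR all lie below, and in FASN, ADIPOQ, PLIN1 and COL1A1 they overlap.

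Lists of genes by function were then read member by member; 640 loci of these lists were tested, of which 76 were called higher and 19 lower at 360d. Of these loci, 92 carried more than 1 gene name, so that reads of neighbouring genes could not be separated there. A list's counts and its median stand beside those of all tested loci, 48.8% of which had a higher mean at 360d, with 3.07% called higher and 2.04% called lower. The 3 libraries of 360d lay fully above those of 60d in 15.6% of all tested loci and fully below in 15.6%.

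**Figure D3:**
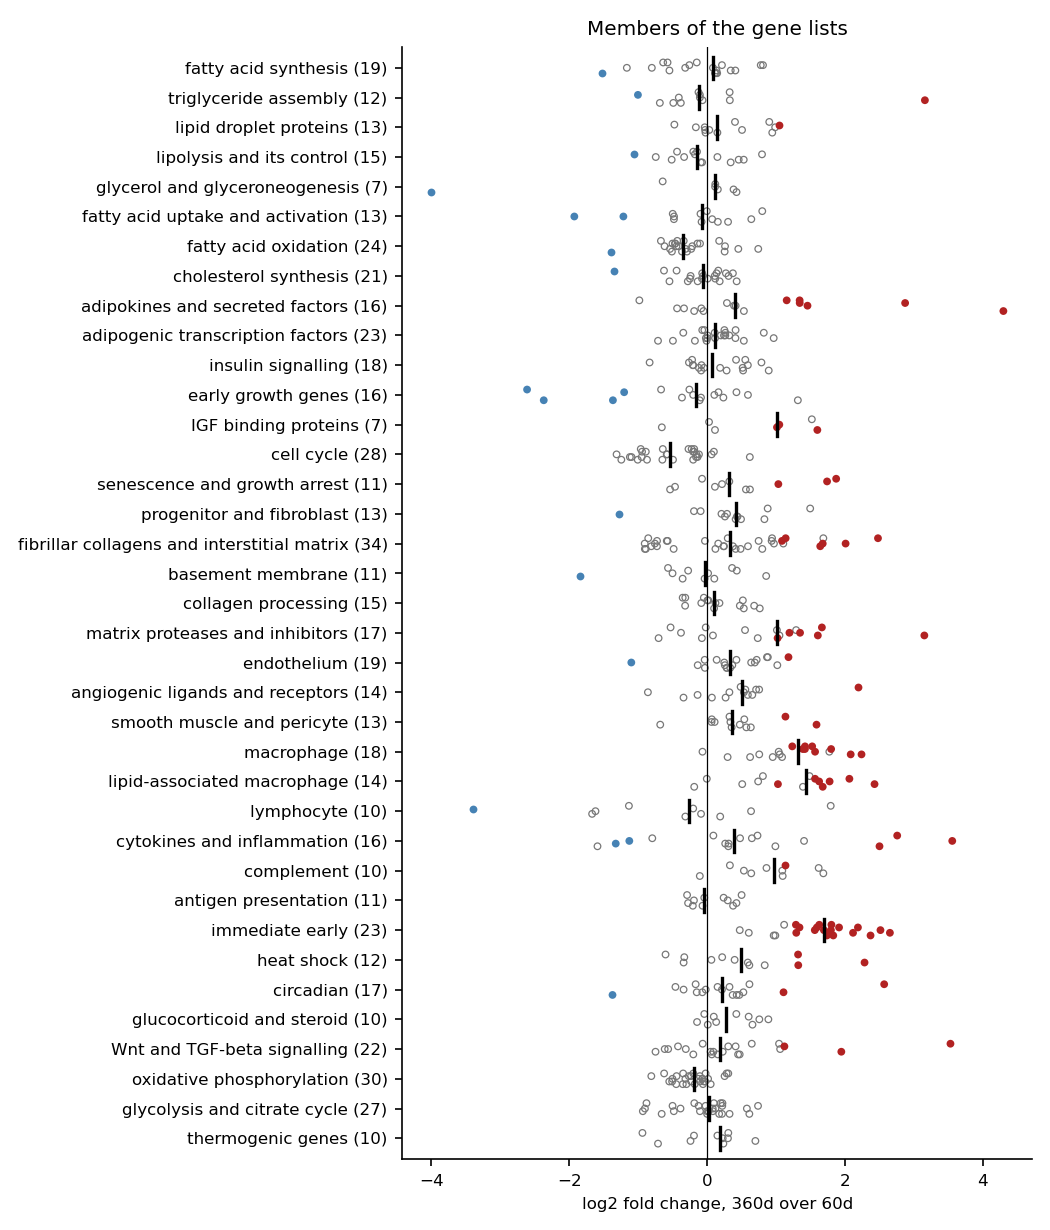
Each row is a gene list with its number of tested members; points are the members' log2 fold changes (horizontal axis, 360d over 60d), red or blue where called higher or lower and open where not called, and the black bar is the list's median. Immediate early genes (median 1.70), both macrophage lists (1.32 and 1.44) and matrix proteases (1.02) lie to the right, whereas fatty acid synthesis (0.09) and insulin signalling (0.07) straddle 0.

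Fatty acid synthesis, which turns acetyl-CoA into saturated and monounsaturated fatty acids, had no member called higher and 1 of 19 called lower, with 10 higher and 9 lower by mean and a median of 0.09. FASN, the fatty acid synthase, had 20217, 8871 and 15912 CPM at 360d, against 13731, 14336 and 10611 CPM at 60d, so that the highest and the lowest of the 6 values both belonged to 360d (log2 fold change 0.22, SE 0.26, adjusted p = 0.627). ACACA, the acetyl-CoA carboxylase of the cytosol, had 2097, 901 and 1303 CPM at 360d, against 1117, 1252 and 1016 CPM at 60d (adjusted p = 0.473), and SCD, which desaturates stearate, had 20597, 10496 and 9603 CPM at 360d, against 16103, 12200.0 and 8805 CPM at 60d (adjusted p = 0.838). In these 3 genes library 1 of 360d lay above every 60d library and another 360d library lay inside or below the 60d range.

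The called member was SLC25A1, the carrier that moves citrate out of mitochondria to supply acetyl-CoA. It had 67.5, 32 and 50.8 CPM at 360d, against 195, 139 and 96.8 CPM at 60d (log2 fold change -1.52, SE 0.31, adjusted p = 0.00746). THRSP, a nuclear protein tied to lipogenesis, had 1593, 468 and 944 CPM at 360d, against 2048, 1921 and 2756 CPM at 60d (adjusted p = 0.0667) and was not called. ELOVL5, which elongates polyunsaturated fatty acids, had 705, 516 and 499 CPM at 360d at its main locus, against 1213, 829 and 952 CPM at 60d (adjusted p = 0.054). The libraries of the 2 ages did not overlap in THRSP or at this locus. Scarcer loci named ELOVL5, without a transcript type, were called lower (log2 fold changes -1.365 and -1.54, adjusted p = 0.0044 and 0.0046). They were called without library 3 of 360d and with the Y-linked covariate too.

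In triglyceride assembly, 1 of 12 members was called higher and 1 lower, with a median of -0.11. The higher one was PNPLA3, given above, and the lower one DGAT1, which adds the third acyl chain, with 26.7, 29 and 35 CPM at 360d, against 58, 57.5 and 65.8 CPM at 60d (log2 fold change -1.0, SE 0.16, adjusted p = 0.00205). DGAT1's change lay at the 2-fold threshold, and its call was lost with the Y-linked covariate. GPAM, which starts the pathway, had a log2 fold change of -0.38 (adjusted p = 0.261).

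Among 13 lipid droplet proteins only PLIN4, a coat protein of nascent droplets, was called, with 3579, 7367 and 7658 CPM at 360d, against 2435, 3207 and 3379 CPM at 60d (log2 fold change 1.04, SE 0.29, adjusted p = 0.0292). Library 1 of 360d was the lowest at that age, and the call was lost without library 3 of 360d (adjusted p = 0.12). PLIN3 met the adjusted p but not the 2-fold threshold (log2 fold change 0.99, SE 0.3, adjusted p = 0.042). PLIN1, the main coat protein of the large droplet, whose locus also carries PEX11A, had 1235, 1588 and 2182 CPM at 360d, against 1799, 1542 and 1736 CPM at 60d (adjusted p = 0.952).

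Of 15 genes of lipolysis and its control, 1 was called lower and 5 had a higher mean, with a median of -0.14. The called locus holds PRKAR2B, a regulatory subunit of protein kinase A, together with HBP1, and had 311, 494 and 403 CPM at 360d, against 914, 684 and 928 CPM at 60d (log2 fold change -1.06, SE 0.24, adjusted p = 0.0122). The call of this joined locus was lost with the Y-linked covariate (adjusted p = 0.0726). A scarcer locus named PRKAR2B alone, without a transcript type, had 11.7, 8.2 and 8.1 CPM at 360d, against 31.0, 26.4 and 28.6 CPM at 60d (log2 fold change -1.62, SE 0.34, adjusted p = 0.00837). That locus was called with the covariate as well. LIPE, hormone-sensitive lipase, had a log2 fold change of 0.15 (adjusted p = 0.675). NPR1, a natriuretic peptide receptor that activates lipolysis in human fat, met the adjusted p with a change under 2-fold (log2 fold change 0.8, SE 0.17, adjusted p = 0.0099).

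Glycerol handling comprised 7 genes, of which PCK1 alone was called. GPD1, which makes glycerol 3-phosphate from glycolysis and shares its locus with SMARCD1, had a log2 fold change of -0.64 (adjusted p = 0.0572) and did not overlap between ages. PDK4 and AQP3 had log2 fold changes of 0.16 and 0.12, with adjusted p-values of 0.795 and 0.827.

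Fatty acid uptake and activation had 2 of 13 members called lower. ACSL1 (chromosome 15, 45863101 to 45933952), which joins long-chain fatty acids to coenzyme A, had 451, 352 and 325 CPM at 360d, against 1345, 1523 and 1414 CPM at 60d (log2 fold change -1.92, SE 0.24, adjusted p = 0.000395). FABP3, a fatty acid binding protein of oxidative tissues, had 263, 333 and 363 CPM at 360d, against 763, 764 and 693 CPM at 60d (log2 fold change -1.21, SE 0.27, adjusted p = 0.0112). FABP3 was not called with the Y-linked covariate (adjusted p = 0.0547). ACSL4, a synthetase with a preference for arachidonate, went the other way with a change under 2-fold (log2 fold change 0.8, SE 0.2, adjusted p = 0.0195). LPL and FABP4, the lipoprotein lipase and the main fatty acid binding protein of fat, had log2 fold changes of 0.16 and -0.09 and overlapped between ages.

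Fatty acid oxidation held 19 of 24 members with a lower mean at 360d, with a median of -0.35. In 9 all 360d libraries lay below all 60d libraries, against 15.6% of all tested loci. A single member was called, lower at 360d, and none was called without library 3 of 360d or with the Y-linked covariate. ACADL and ECI1, both mitochondrial, met the adjusted p with log2 fold changes of -0.51 and -0.54, ECI1 sharing its locus with RNPS1.

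Cholesterol synthesis had 1 of 21 members called, lower at 360d, and a median of -0.06. DHCR7, which makes cholesterol from 7-dehydrocholesterol, had 10.7, 7.66 and 10.3 CPM at 360d, against 27.4, 24.4 and 21.3 CPM at 60d (log2 fold change -1.35, SE 0.38, adjusted p = 0.0343). Its adjusted p was 0.0989 without library 3 of 360d and 0.0976 with the Y-linked covariate, and no member was called in either. Adipogenic transcription factors and insulin signalling gave no call, with medians of 0.12 and 0.07. Of 23 adipogenic transcription factors, RXRA and KLF4 met the adjusted p with log2 fold changes of 0.83 and 0.97, and EBF2, a factor of brown and beige progenitors in mice, with -0.71. PPARG, the master regulator of adipocyte differentiation, had 912, 1018 and 811 CPM at 360d, against 1124, 1463 and 1272 CPM at 60d (log2 fold change -0.49, adjusted p = 0.0519). Among 18 genes of insulin signalling IRS2 and HK1 were among those that met the adjusted p, with log2 fold changes of 0.59 and 0.9.

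Adipokines and other secreted factors showed 6 of 16 tested members called higher at 360d and none lower, with a median of 0.41; 3 were called without library 3 of 360d and 4 with the Y-linked covariate. LEP is given above. AGT, the precursor of angiotensin, had 488, 701 and 1108 CPM at 360d, against 408, 162 and 334 CPM at 60d (log2 fold change 1.35, SE 0.36, adjusted p = 0.0267). C1QTNF1, a relative of adiponectin, had 130.0, 87.2 and 172 CPM at 360d, against 57, 48.6 and 47.3 CPM at 60d (log2 fold change 1.35, SE 0.24, adjusted p = 0.00372). METRNL, a hormone of muscle and fat in mice, had 15.1, 12.9 and 22.3 CPM at 360d, against 5.65, 8.12 and 4.52 CPM at 60d (log2 fold change 1.46, SE 0.39, adjusted p = 0.0265). RARRES2, which encodes the chemokine chemerin, had 15.7, 7.47 and 19.3 CPM at 360d, against 6.34, 6.67 and 6.04 CPM at 60d (log2 fold change 1.16, SE 0.35, adjusted p = 0.0424).

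The calls for AGT, METRNL and RARRES2 were lost without library 3 of 360d, with adjusted p-values of 0.138, 0.115 and 0.184. ADIPOQ, which encodes adiponectin, had 2096, 4239.6 and 4022 CPM at 360d, against 5037, 4123 and 4822 CPM at 60d (log2 fold change -0.43, SE 0.28, adjusted p = 0.33). Library 1 of 360d was the lowest in ADIPOQ, library 2 lay inside the 60d range and library 3 just below it.

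Early growth genes, many of them imprinted or active before birth, had 4 of 16 tested members called lower and none higher. IGF1 (chromosome 5, 81776406 to 81858964), the insulin-like growth factor that fat also makes locally, had 85.7, 24.9 and 25.9 CPM at 360d, against 274, 231 and 199 CPM at 60d (log2 fold change -2.37, SE 0.39, adjusted p = 0.00205). IGF2BP2, an RNA-binding protein of fetal growth, had 2.38, 4.68 and 2.92 CPM at 360d, against 8.63, 7.94 and 9.13 CPM at 60d (log2 fold change -1.36, SE 0.33, adjusted p = 0.0167), and PLAG1, a transcription factor tied to body size in cattle, had 1.49, 1.04 and 0.688 CPM at 360d, against 1.77, 3.56 and 2.07 CPM at 60d (log2 fold change -1.2, SE 0.35, adjusted p = 0.0397). PEG10, given above, was the fourth. IGF1 and PEG10 were called without library 3 of 360d as well, and 3 of the 4 with the Y-linked covariate.

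Of 7 IGF binding proteins, which hold IGF in the tissue and the blood, 3 were called higher, with a median of 1.02 over the list. IGFBP2 had 6.5, 8.74 and 9.72 CPM at 360d, against 3.17, 2.3 and 2.74 CPM at 60d (log2 fold change 1.6, SE 0.38, adjusted p = 0.0149). IGFBP3 had 73.9, 80.7 and 122 CPM at 360d, against 40.2, 42.2 and 54.2 CPM at 60d (log2 fold change 1.02, SE 0.28, adjusted p = 0.0318), and IGFBP4 had 191, 149 and 221 CPM at 360d, against 70.4, 111 and 89.2 CPM at 60d (log2 fold change 1.05, SE 0.25, adjusted p = 0.0165). No library of 60d reached one of 360d in these genes, though none of them was called without library 3 of 360d, the median of the list then being 0.77, and 1 was called with the Y-linked covariate.

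Cell cycle genes gave no call with edgeR, and the libraries of the 2 ages overlapped in all 28. The mean was lower at 360d in 25 of them, with a median of -0.53, and the summed level of the list was 547, 354 and 403 CPM at 360d, against 432, 622 and 432 CPM at 60d. With the Y-linked covariate the median was -0.87 and 1 member, CENPE, a motor protein of chromosome movement, was called lower (log2 fold change -1.49, adjusted p = 0.0259). TOP2A, needed to untangle chromosomes, had 15.4, 4.54 and 2.28 CPM at 360d, against 8.83, 34.1 and 9.49 CPM at 60d (adjusted p = 0.171). The growth arrest list had 3 of 11 members called higher (2 without library 3 of 360d), all of the GADD45 family of stress-induced proteins. GADD45G had 29.2, 25.2 and 48.4 CPM at 360d, against 12.5, 9.58 and 5.89 CPM at 60d (log2 fold change 1.88, SE 0.38, adjusted p = 0.00774). GADD45A and GADD45B had log2 fold changes of 1.04 and 1.74, and CDKN1A, the inhibitor p21, had 0.62 (adjusted p = 0.0395).

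Of 34 interstitial matrix genes 6 were called higher and none lower, and 4 were called higher without library 3 of 360d. With the Y-linked covariate 3 were called higher and 2 lower, namely COL5A2 (-1.03, adjusted p = 0.00923) and ASPN, a small proteoglycan (-1.12, adjusted p = 0.0377). PRELP, a leucine-rich proteoglycan, had 78.5, 117 and 367 CPM at 360d, against 24.5, 42.3 and 33.7 CPM at 60d (log2 fold change 2.48, SE 0.52, adjusted p = 0.00896). THBS1, a matricellular glycoprotein, had 545, 1146 and 2630.4 CPM at 360d, against 317, 435 and 319 CPM at 60d (log2 fold change 2.01, SE 0.55, adjusted p = 0.0284). MGP, which blocks calcification, had 119.8, 102 and 211 CPM at 360d, against 49.2, 43.9 and 45.2 CPM at 60d (log2 fold change 1.65, SE 0.34, adjusted p = 0.00864). Library 3 was the highest 360d library in each, and THBS1 had an adjusted p of 0.174 without it.

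The fibulins, which bind elastic fibres and basement membranes, made up the other calls. FBLN1 had 183, 97.9 and 233 CPM at 360d, against 40.4, 54.7 and 64.9 CPM at 60d (log2 fold change 1.68, SE 0.35, adjusted p = 0.00864). FBLN2 and FBLN5 had log2 fold changes of 1.09 and 1.14 (adjusted p = 0.0153 and 0.00783), and neither overlapped between ages. The means of the fibril-forming collagens COL1A1, COL1A2, COL3A1, COL5A1 and COL5A2 were lower at 360d, without a call. COL1A1 had 3512, 1712 and 2414 CPM at 360d, against 2737, 5891 and 5496 CPM at 60d (log2 fold change -0.89, adjusted p = 0.289), with library 1 of 60d inside the 360d range. COL5A2 and SPARC, which encodes a glycoprotein that binds collagen, met the adjusted p with log2 fold changes of -0.85 and -0.81. The list's median was 0.34, and it was 0.19 without library 3 of 360d and close to 0 (-0.0008) with the Y-linked covariate.

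Matrix proteases and their inhibitors had 6 of 17 members called higher and none lower, with a median of 1.02. In 11 all 360d libraries lay above all 60d libraries, against 15.6% of all tested loci. ADAMTS5 (chromosome 13, 190341878 to 190413467), an aggrecanase that also cuts versican, had 800.5, 828 and 943 CPM at 360d, against 308, 244 and 257 CPM at 60d (log2 fold change 1.67, SE 0.21, adjusted p = 0.000457). TIMP2, an inhibitor of matrix metalloproteinases, had 455, 568 and 749.8 CPM at 360d, against 202, 249 and 244 CPM at 60d (log2 fold change 1.35, SE 0.25, adjusted p = 0.00419). MMP9, a gelatinase of macrophages and neutrophils, was scarce, with 1.99, 7.01 and 2.02 CPM at 360d, against 0.51, 0.322 and 0.402 CPM at 60d (log2 fold change 3.16, SE 0.67, adjusted p = 0.00924).

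ADAMTS1, TIMP1 and PLAT, a protease that starts the breakdown of fibrin, rose by 1.2, 1.61 and 1.03 on the log2 scale (adjusted p = 0.0392, 0.0448 and 0.0147). Without library 3 of 360d 3 members were called, and with the Y-linked covariate 4 were. Of the basement membrane list, COL4A5, a chain of collagen IV, was called lower, with 9.46, 5.75 and 3.7 CPM at 360d, against 28.4, 16.3 and 22.8 CPM at 60d (log2 fold change -1.84, SE 0.57, adjusted p = 0.0483). Its adjusted p was 0.188 without library 3 of 360d and 0.237 with the Y-linked covariate. Of 13 progenitor and fibroblast genes 10 had a higher mean at 360d, with a median of 0.42, and none was called higher. DPT, which encodes the matrix protein dermatopontin, went the other way and was called lower. It had 49.4, 55.6 and 58.1 CPM at 360d, against 80.7, 144 and 168 CPM at 60d (log2 fold change -1.27, SE 0.26, adjusted p = 0.00757).

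Macrophage genes were higher at 360d in 17 of 18 tested members, 9 of which were called, with a median of 1.32. CSF1R, the receptor for the growth factor on which macrophages depend, had 104, 67.3 and 124 CPM at 360d, against 27.3, 46.4 and 36.3 CPM at 60d (log2 fold change 1.42, SE 0.3, adjusted p = 0.00925). MRC1, the mannose receptor of tissue macrophages, had 139, 65.8 and 93.4 CPM at 360d, against 29.9, 39.8 and 41.7 CPM at 60d (log2 fold change 1.42, SE 0.35, adjusted p = 0.0178). TYROBP, an adaptor of myeloid receptors, had 4.39, 5.43 and 10.1 CPM at 360d, against 1.35, 1.68 and 1.66 CPM at 60d (log2 fold change 2.09, SE 0.4, adjusted p = 0.00591). All 360d libraries stood above all 60d libraries in these, as in 12 members of the list, against 15.6% of all tested loci. In bulk tissue, more cells of a type and more RNA per cell cannot be told apart.

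CD14, MSR1, VSIG4, CD86, LGMN and F13A1 rose by 1.57, 1.8, 1.53, 1.39, 1.24 and 2.24 on the log2 scale. CD163, a scavenger receptor, had 146, 68.2 and 129 CPM at 360d, against 35.4, 76.6 and 52.6 CPM at 60d (adjusted p = 0.171) and was not called, and the locus of CD68 also carries EIF4A1 and other genes. Without library 3 of 360d 6 members were called, and with the Y-linked covariate 2, the medians being 1.24 and 1.15. A second list, of genes that macrophages of obese fat express in mice and humans, had 7 of 14 members called higher, with a median of 1.44.

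GPNMB, a glycoprotein of lysosome-rich macrophages, had 44.8, 189.6 and 92.3 CPM at 360d, against 15.5, 24.9 and 20.1 CPM at 60d (log2 fold change 2.43, SE 0.43, adjusted p = 0.00371). CTSD, a lysosomal protease made in many cells, had 297, 576 and 736 CPM at 360d, against 168, 151 and 148 CPM at 60d (log2 fold change 1.78, SE 0.23, adjusted p = 0.00056). LGALS3, the lectin galectin 3, had 27.4, 68.1 and 38.4 CPM at 360d, against 12.3, 19.7 and 11.4 CPM at 60d (log2 fold change 1.63, SE 0.43, adjusted p = 0.0246). Library 2 of 360d was the highest in GPNMB and LGALS3, whereas MRC1 was highest in library 1 and TYROBP in library 3.

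CTSL, CTSZ and CTSB, further cathepsins, and CD9, a tetraspanin, rose by 2.07, 1.68, 1.03 and 1.57 on the log2 scale. TREM2 and SPP1 had log2 fold changes of 1.39 and 1.49 with adjusted p-values of 0.163 and 0.0851, and LIPA, the lysosomal lipase, of -0.18 (0.652). Of this list, 5 members were called without library 3 of 360d and 6 with the Y-linked covariate.

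Of 10 tested lymphocyte genes, 7 had a lower mean at 360d, against 51.2% of all loci, and GZMA alone was called. That call was lost without library 3 of 360d (adjusted p = 0.0585), and 3 members were called lower with the Y-linked covariate. CD2, a receptor of T cells, had 0.662, 1.72 and 0.826 CPM at 360d, against 1.73, 7.61 and 0.854 CPM at 60d (adjusted p = 0.0788), with library 2 of 60d above the rest. The antigen presentation list gave no call among 11 members and had a median of -0.04. Of 10 tested complement genes 9 had a higher mean, and SERPING1, the C1 inhibitor, was called, with 188, 227 and 400.4 CPM at 360d, against 113, 139 and 118 CPM at 60d (log2 fold change 1.14, SE 0.29, adjusted p = 0.0221); the call was lost without library 3 of 360d (adjusted p = 0.126) and with the Y-linked covariate (0.0903).

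Of 16 cytokine genes 3 were called higher and 2 lower, but 2 were called higher and none lower without library 3 of 360d, and 2 higher and 1 lower with the Y-linked covariate. SOCS3 (chromosome 12, 3643929 to 3647009), the feedback inhibitor of leptin and interleukin 6 signalling, had 48.9, 73.7 and 135 CPM at 360d, against 6.91, 7.42 and 7.51 CPM at 60d (log2 fold change 3.56, SE 0.56, adjusted p = 0.00173). IL6 had 8.23, 6.69 and 9.3 CPM at 360d, against 1.85, 1.35 and 1.07 CPM at 60d (log2 fold change 2.5, SE 0.48, adjusted p = 0.00572), and CXCL8 was near the lower end of detection, with 0.73, 0.648 and 0.606 CPM at 360d, against 0.051, 0.099 and 0.138 CPM at 60d (log2 fold change 2.76, SE 0.84, adjusted p = 0.0442). CXCL12, which keeps progenitors and lymphocytes in place, had 101, 159.7 and 85.2 CPM at 360d, against 277, 321 and 267 CPM at 60d (log2 fold change -1.32, SE 0.31, adjusted p = 0.0157), and IL15, a cytokine that sustains lymphocytes, had 162, 169.8 and 112 CPM at 360d, against 284, 321 and 364 CPM at 60d (log2 fold change -1.13, SE 0.22, adjusted p = 0.00601). The 60d libraries of SOCS3 lay within 10% of each other and far below each 360d library.

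The immediate early genes, which are switched on within minutes by growth factors, stress or handling of the tissue, formed the list with the largest share of calls. All 23 tested members had a higher mean at 360d and 18 were called, with a median of 1.70. In 21 all 360d libraries lay above all 60d libraries, against 15.6% of all tested loci. FOS, a subunit of the AP-1 factor, had 1268, 955 and 1573 CPM at 360d, against 218, 269 and 245 CPM at 60d (log2 fold change 2.38, SE 0.58, adjusted p = 0.0169). FOSL2 had 722, 685 and 801 CPM at 360d, against 195, 173 and 216 CPM at 60d (log2 fold change 1.92, SE 0.23, adjusted p = 0.000395), and EGR1, a zinc finger factor, had 472, 323 and 492 CPM at 360d, against 114, 117 and 130.2 CPM at 60d (log2 fold change 1.83, SE 0.24, adjusted p = 0.000589). ZFP36, which speeds the decay of cytokine messages, had 241, 263 and 396 CPM at 360d, against 65.5, 65.6 and 65.9 CPM at 60d (log2 fold change 2.19, SE 0.3, adjusted p = 0.000756). MYC had 55.5, 58.7 and 81.5 CPM at 360d, against 20.7, 18.4 and 19.4 CPM at 60d, the smallest adjusted p of the list (log2 fold change 1.74, SE 0.18, adjusted p = 0.000209).

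The remaining calls were FOSB, JUN, EGR2, EGR3, ATF3, IER2, IER3, KLF2, KLF6, DUSP1, BTG2, CCN1 and CCN2, whose log2 fold changes ran between 1.29 in KLF2 and 2.66 in FOSB. NR4A1 had a log2 fold change of 1.12 (adjusted p = 0.0726) and KLF4 of 0.97 (0.0163). The summed level of the list was 7854, 5627 and 8111 CPM at 360d, against 2175, 2079 and 2466 CPM at 60d. Without library 3 of 360d 12 members were called, and with the Y-linked covariate 10, with medians of 1.58 and 1.56. The part of tissue handling in these levels was not tested.

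**Figure D4:**
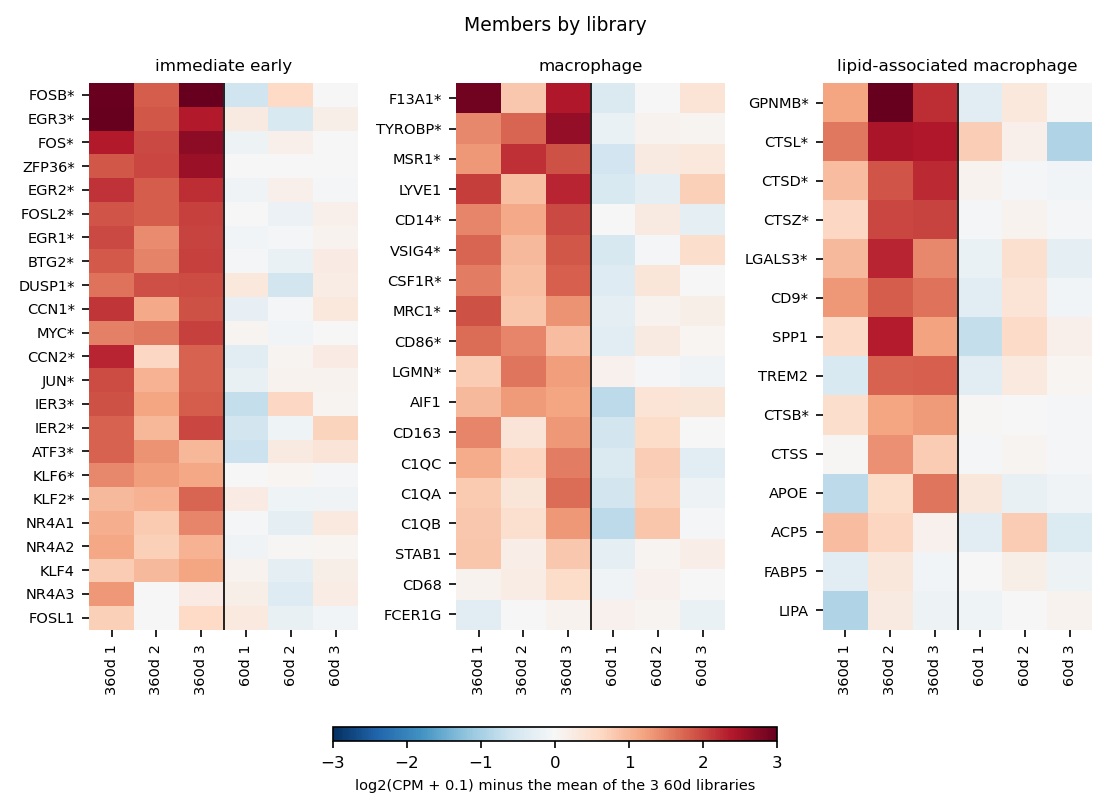
Members (rows) of the immediate early, macrophage and lipid-associated macrophage lists in the 3 libraries at 360d and the 3 libraries at 60d (columns); colour gives log2(CPM + 0.1) minus the mean of the 60d libraries, and an asterisk marks a gene called higher. Rows are sorted by fold change; 18 of 23, 9 of 18 and 7 of 14 rows carry the asterisk, and the rows at the bottom, such as LIPA and FCER1G, show no uniform colour.

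Of 12 heat shock genes, 3 were called higher, all of them small heat shock proteins. CRYAB had 98.3, 96.2 and 251 CPM at 360d, against 45.8, 22.7 and 22.7 CPM at 60d (log2 fold change 2.29, SE 0.48, adjusted p = 0.00878). HSPB1 and HSPB6 rose by 1.32 and 1.33 on the log2 scale. Of the 3, 1 was called without library 3 of 360d and 2 with the Y-linked covariate. Neither HSPA8 nor HSPH1, chaperones of the larger classes, was called (adjusted p = 0.098 and 0.747). The circadian list had 2 of 17 members called higher and 1 lower. BHLHE40, a repressor that also answers to low oxygen, had 81.8, 113 and 92.3 CPM at 360d, against 20.9, 16 and 11.3 CPM at 60d (log2 fold change 2.57, SE 0.33, adjusted p = 0.00056), NFIL3 rose by 1.11, and the locus of DBP and CA11 had 4.08, 2.59 and 3.66 CPM at 360d, against 9.39, 8.66 and 8.65 CPM at 60d (log2 fold change -1.37, SE 0.25, adjusted p = 0.00404). Both without library 3 of 360d and with the covariate, 1 higher and 1 lower call were left in the list, NFIL3 having adjusted p-values of 0.0538 and 0.108. PER1, PER2 and ARNTL, parts of the core clock, had adjusted p-values of 0.0523, 0.109 and 0.229.

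Of 19 endothelial genes 15 had a higher mean, 1 was called higher and 1 lower. VWF, the von Willebrand factor of larger vessels, whose locus also carries 3 unnamed genes, had 1006, 831 and 928 CPM at 360d, against 311, 462 and 444 CPM at 60d (log2 fold change 1.18, SE 0.15, adjusted p = 0.00056). KDR (chromosome 8, 41808753 to 41856379), the main receptor for VEGF on growing vessels, had 124, 171 and 114 CPM at 360d, against 241, 310.0 and 324 CPM at 60d (log2 fold change -1.1, SE 0.2, adjusted p = 0.00377). The change of KDR was -0.97 (adjusted p = 0.0232) without library 3 of 360d, under the 2-fold threshold. CDH5, which joins endothelial cells, had a log2 fold change of 0.26 (adjusted p = 0.271). PGF, a ligand of the VEGF receptor FLT1, was the called member of 14 angiogenic genes, with 4.08, 3.0 and 3.48 CPM at 360d, against 0.918, 0.544 and 0.854 CPM at 60d (log2 fold change 2.19, SE 0.36, adjusted p = 0.00211), whereas VEGFA had a log2 fold change of 0.07 (adjusted p = 0.88).

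Smooth muscle and pericyte genes had 12 of 13 members with a higher mean and 2 called. TAGLN had 94.8, 61.7 and 78.5 CPM at 360d, against 25, 25.5 and 27.5 CPM at 60d (log2 fold change 1.59, SE 0.35, adjusted p = 0.0115), and LMOD1 rose by 1.14 on the log2 scale (adjusted p = 0.0469). LMOD1 lost its call without library 3 of 360d (adjusted p = 0.0975), and with the Y-linked covariate TAGLN did (0.0511). ACTA2, the smooth muscle actin, had a log2 fold change of 0.57 (adjusted p = 0.228). Of 22 Wnt and TGF-beta genes 3 were called higher, namely INHBB, SFRP2, a secreted Wnt antagonist, with 60.0, 22.7 and 27.2 CPM at 360d, against 6.46, 11.5 and 10.5 CPM at 60d (log2 fold change 1.95, SE 0.42, adjusted p = 0.0103), and BMP4, with a log2 fold change of 1.12. INHBB alone was called with the Y-linked covariate.

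Oxidative phosphorylation had no called member among 30 and a median of -0.19, with 25 lower by mean. The subunits of ATP synthase ATP5PB, ATP5F1C and ATP5PO met the adjusted p, with log2 fold changes of -0.81, -0.5 and -0.62. ATP5PB had 63.9, 63.2 and 59.2 CPM at 360d, against 117, 109 and 99.6 CPM at 60d. Among 27 glycolysis and citrate cycle genes none was called (1 was, lower, without library 3 of 360d), and CS, DLAT and LDHB met the adjusted p with log2 fold changes of -0.5, -0.9 and -0.88. The thermogenic list and the glucocorticoid and steroid list, each with 10 tested members, gave no call, and neither did collagen processing, with 15. The medians of these lists were 0.19, 0.28 and 0.10. None of the mitochondrial genome's genes passed the filter.

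Markers of other tissues gave no called difference. Skeletal muscle genes had large fitted changes, as in ACTA1, with 0.73, 0.936 and 0.592 CPM at 360d, against 2.88, 32.5 and 2.62 CPM at 60d (adjusted p = 0.224), where library 2 of 60d stood far above the rest. No member of the keratinocyte, Schwann cell, erythrocyte or hepatocyte lists was called, and KRT1 was at 0 in all 6 libraries. Macrophage markers in the fixed set of 6 summed to 623, 440 and 686 CPM at 360d, against 272, 389 and 326 CPM at 60d, and the endothelial set to 2518, 2373 and 2196 CPM at 360d, against 1624, 1772 and 1941 CPM at 60d. Fibroblast and progenitor markers summed to 752, 602 and 665 CPM at 360d, against 349, 494 and 399 CPM at 60d. Their part in the results on whole tissue was not tested.

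Of 13 genes with QPCR measurements in the same fat, none was called higher and ACSL1, given above, was among those called lower. COL1A2, COL5A1, COL6A3, COL14A1, CHST13, OAZ3 and DNM1 overlapped between the ages and had adjusted p-values of 0.271 or more, as had COL1A1. FN1, DCN and SELP had all 360d libraries above all 60d libraries without a call (log2 fold changes 0.97, 0.75 and 1.02, adjusted p = 0.168, 0.0501 and 0.0953). DCN, the proteoglycan decorin, had 555, 498 and 524 CPM at 360d, against 260.4, 385 and 293 CPM at 60d.

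The stages between the endpoints show how far the called loci had moved at each age. Since the genes were called from the 60d and 360d libraries, those ends are fixed by the choice and no test is given for the course. In the loci called higher at 360d, the median share of the endpoint difference reached was 39.2% at 120d, 42.5% at 180d, 63.9% at 240d and 64.9% at 300d. In the loci called lower it was 39.1%, 56.0%, 69.4% and 62.5% at the same ages. The most distant stage from 60d was 360d in 484 of the 597 loci and in 295 of the 398.

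Single genes took different courses. LEP had stage means of 19.5, 32.1, 168, 387, 289 and 385 CPM from 60d to 360d, with the largest steps between 120d and 240d. PCK1 had 492, 161, 51.6, 74.5, 75.8 and 30.6 CPM over the same ages, most of its fall being complete at 180d. MYC had 19.5, 20.4, 24.7, 37.4, 35.1 and 65.2 CPM, with the largest step between 300d and 360d. FBN2 had 27.1, 15.8, 7.91, 7.87, 7.78 and 4.51 CPM, and ACSL1 had 1428, 674, 577, 501, 579 and 376 CPM.

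**Figure D5:**
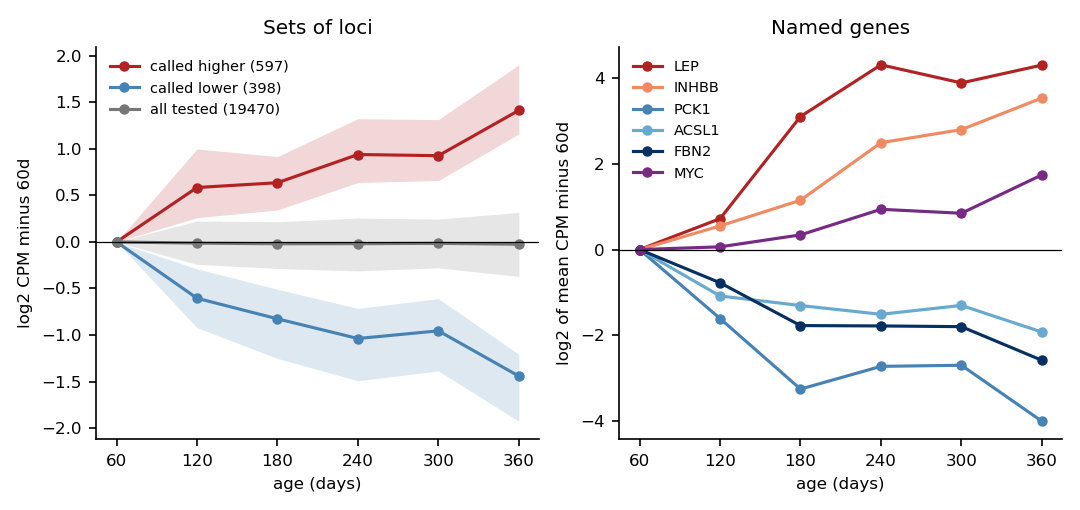
Left, median (line) and interquartile range (band) over loci of log2 CPM minus the 60d level at each age in days, for loci called higher (597), called lower (398) and all tested loci; right, log2 of the mean CPM of 3 libraries minus the 60d value for 6 genes. The red line stands at 0.58 at 120d and 1.41 at 360d, the blue line at -0.61 and -1.44, and LEP is the uppermost line on the right from 120d on.

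The 12 libraries of 120d to 300d share no library with the endpoints, and a trend along age was fitted in them with edgeR. At an adjusted p of at most 0.05, 74 loci rose and 35 fell with age (0.56% of those tested). Of the 597 loci called higher between the endpoints, 454 (76.0%) had a rising slope in these libraries, against 48.8% of all loci. Of the 398 called lower, 315 (79.1%) had a falling slope, against 51.2% of all loci. Leaving out each of the 12 libraries gave 72.7% to 77.9% and 74.9% to 82.2%. The trend fit scaled these 12 libraries on their own, whereas the CPM values were scaled over all 18 libraries. The pigs of each stage were litter mates here too. Low Y-linked levels were seen in library 2 of 120d, libraries 1, 2 and 3 of 180d and library 2 of 300d. Such libraries thus lay mostly at the younger ages, as they did between the endpoints. The trend was not fitted with the Y-linked covariate, so the part of the Y-linked level in these shares was not tested.

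Calls shared by the trend and the endpoints were 23 loci that rose (3.85% of the endpoint calls and 31.1% of the trend calls) and 8 that fell (2.01% and 22.9%). INHBB, FOSB, ZFP36, VWF, CSF1, DLL4, NOTCH4 and SOD3 were among the 23, and DTL, KAZALD1 and SPEF2 among the 8. INHBB had stage means of 4.36, 6.39, 9.69, 24.6, 30.4 and 50.6 CPM from 60d to 360d and a slope of 2.44 per 180 days on the log2 scale over the middle libraries (adjusted p = 0.0136). The number of trend calls rested on single libraries, since 0 loci were called without library 1 of 120d and 1 without library 1 of 300d. LEP had a slope of 3.27 per 180 days (adjusted p = 0.124) and PCK1 of -0.93 (adjusted p = 0.578).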

How the data were processed

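Ribosome-depleted total RNA of shoulder backfat was sequenced in paired-end reads from 18 pigs, 3 at each of 6 stages. The authors trimmed reads with Cutadapt, mapped them to Sscrofa11.1 with Hisat2 and assembled loci with StringTie. They deposited raw counts per locus and FPKM values per locus and library in a single table; how the counts were taken from the alignments, and whether strand was used, is not given in the sources used here. Loci can join neighbouring genes (1443 loci carried more than 1 name), so each gene was read at the typed locus with the most counts.

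Loci reaching 0.5 FPKM in 3 or more libraries (19470) were kept, and their counts were scaled by TMM and fitted with edgeR 4.0.16 (R 4.3.3), with 6 stage groups in 1 fit, which share an estimate of the spread (residual degrees of freedom 12), and 360d was tested against 60d by the quasi-likelihood test with Benjamini-Hochberg adjustment over all loci. The trend along age used the 12 libraries of 120d to 300d. The filter used all 18 libraries, and 543 loci, of which 39 were called, passed it only through the 6 libraries compared. Alternatives were RLE scaling, other filters, DESeq2 1.42.0, limma 3.58.1 on log2 FPKM and with voom, the 6 libraries alone, a replicate block, the Y-linked covariate, the removal of libraries of low Y-linked level and each library left out. Added after seeing the data were the list medians and the shares along the trend with each library left out, and the counts of called list members without library 3 of 360d and with the covariate. The fit was tested on simulated data.

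Named genes were those that the study measured by QPCR, the 12 called genes in each direction with the largest change (single symbol, protein-coding, 1 FPKM or more at the higher age, no overlap of libraries), the list members that were called and 4 or fewer defining members per list. The members and lists were chosen with earlier results of these data known. A few results on single genes are not reported here.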

Additional observations from a re-analysis of the deposited data

How the results depend on the processing

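Having 3 libraries per age, litter mates within an age, a 360d library that stood apart and 2 of 3 libraries of 60d with low Y-linked levels limit these results, and the causes of the changes below were not tested. Over 18 fits that each left out 1 library, calls higher at 360d numbered 341 to 644 and calls lower 162 to 532; the lowest counts came without library 3 of 360d, where 46 of the 112 called genes named in the text lost their call. With the Y-linked covariate 359 and 288 loci were called and 43 of the 112 lost their call. Leaving out the libraries of low Y-linked level kept 1 library of 60d, assumed to vary like the other groups, and gave 66 and 48 calls; 95 of the 112 lost their call, and 1 of the 398 loci called lower changed sign. None of the 112 changed direction in the settings that gave a value.

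By adjusted p alone 1298 and 1014 loci were called, with protein-coding loci alone 384 and 220, with limma on log2(FPKM + 0.1) 330 and 763, and on log2(FPKM + 1) 182 and 188. The median over all loci moved by -0.18 and -0.11 in the limma fits. DESeq2 called 795 and 573 loci, and the counts with RLE scaling, limma-voom, no filter and the 6 libraries alone were also within 1.5 times those of edgeR. Calls along age numbered 53 with no filter and 0 to 137 with 1 library left out.

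Libraries of equal replicate number showed little sign of pairing, with a mean residual correlation of 0.0108 over 45 pairs. Residuals were taken from each stage mean, which ties the value for different numbers (-0.00528 over 90 pairs) to that for equal numbers. The value for different numbers is therefore no separate comparison. A replicate block gave 554 and 418 calls and 33 along age, and medians of 0.50 for cytokines and 0.28 for heat shock.

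List medians moved as follows. With the Y-linked covariate they were 0.13 for cholesterol synthesis, -0.086 for early growth, -0.87 for cell cycle, 0.13 for growth arrest, 0.16 for progenitors, 0.81 for proteases, 0.28 for cytokines and 0.37 for heat shock. Without the libraries of low Y-linked level they were 0.027 for cholesterol synthesis, 0.21 for adipogenic factors, 0.18 for insulin signalling, 0.050 for early growth, -1.26 for cell cycle, 0.15 for growth arrest, -0.18 for basement membrane, 0.83 for proteases, 0.54 for endothelium, 0.70 for smooth muscle, 0.54 for cytokines, 0.24 for heat shock and 0.36 for the circadian list. With limma on log2(FPKM + 1), relative to all loci, they were 0.054 for adipogenic factors, 0.64 for proteases, 0.33 for angiogenic genes, 0.91 for macrophages, 0.20 for cytokines, 1.37 for immediate early genes, 0.26 for heat shock and 0.12 for the circadian list. With voom they were -0.23 for triglyceride assembly and 0.82 for proteases, and with at least 1 FPKM in any library -0.0889 for early growth and 0.32 for cytokines. With protein-coding loci alone they were -0.19 for fatty acid synthesis, -0.11 for cholesterol synthesis, 0.066 for adipogenic factors, 0.22 for insulin signalling and 0.36 for heat shock.

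With 1 library left out, the medians ranged between -0.28 and 0.24 for fatty acid synthesis, -0.28 and -0.047 for triglyceride assembly, -0.070 and 0.0061 for cholesterol synthesis, 0.31 and 0.62 for adipokines, 0.11 and 0.20 for adipogenic factors, 0.075 and 0.18 for insulin signalling, -0.16 and -0.030 for early growth, 0.28 and 0.52 for growth arrest, 0.14 and 0.58 for progenitors, 0.32 and 0.54 for angiogenic genes, 0.32 and 0.65 for cytokines, 0.27 and 0.58 for heat shock, and 0.11 and 0.33 for the circadian list.

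Among the genes named in the text, signs turned in some that were not called. Leaving out 1 library gave log2 fold changes of -0.12 to 0.37 in COL14A1, -0.14 to 1.11 in OAZ3, -0.20 to 0.11 in DNM1, -0.034 to 0.59 in ACACA, -0.057 to 0.49 in FASN, -0.30 to 0.37 in SCD, -0.25 to 0.16 in PLIN1, -0.060 to 0.58 in PNPLA2, -0.060 to 0.34 in LIPE, -0.20 to 0.060 in FABP4 and -0.28 to 0.13 in CEBPA. The limma fits with pseudocounts of 0.1 and 1 gave -0.027 and -0.027 in COL6A3, -0.054 and -0.050 in COL14A1, -0.034 and -0.034 in FASN, -0.096 and -0.096 in SCD, -0.061 and -0.060 in LIPE and -0.029 and -0.029 in LPL. The Y-linked covariate gave -0.21 in COL14A1, -0.024 in OAZ3, 0.091 in PLIN1 and 0.028 in CEBPA, and leaving out the libraries of low Y-linked level gave -0.27 in COL14A1 and 0.13 in PLIN1.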

Other observations

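Genes outside the lists were taken from the 264 loci (165 higher and 99 lower at 360d) that were called in 27 settings, which leave out the fits without the libraries of low Y-linked level, on protein-coding loci alone and on log2(FPKM + 1). The genes named here were chosen after their values were seen, and their p-values support nothing beyond the description. PROCR, the endothelial receptor of protein C, had 21.1, 26.4 and 32.6 CPM at 360d, against 2.98, 4.22 and 5.36 CPM at 60d (log2 fold change 2.67, SE 0.49, adjusted p = 0.00419). DLL4, a Notch ligand of vessel tips, had 120.3, 71.4 and 80.8 CPM at 360d, against 19.1, 12.4 and 18.6 CPM at 60d (log2 fold change 2.44, SE 0.28, adjusted p = 0.000292). NOTCH4, an endothelial Notch receptor, had 163, 103 and 158 CPM at 360d, against 54.8, 34.9 and 62.2 CPM at 60d (log2 fold change 1.48, SE 0.23, adjusted p = 0.0015). All 360d libraries stood above all 60d libraries in these vessel genes, while KDR fell.

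Receptors and growth factors of myeloid cells were among these loci too. CSF1, the ligand of CSF1R, had 154, 110.3 and 147 CPM at 360d, against 31.3, 35.8 and 36 CPM at 60d (log2 fold change 2.0, SE 0.17, adjusted p = 4.63e-05). TLR4, the receptor of bacterial lipopolysaccharide, had 42.9, 36.5 and 49.9 CPM at 360d, against 13.2, 15.4 and 9.75 CPM at 60d (log2 fold change 1.75, SE 0.23, adjusted p = 0.000589). HBEGF, a ligand of the EGF receptor, had 8.26, 5.94 and 10.2 CPM at 360d, against 1.68, 1.7 and 1.75 CPM at 60d (log2 fold change 2.25, SE 0.28, adjusted p = 0.000398). Their libraries did not overlap between the ages.

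Among the loci that fell were receptors through which fat cells answer to signals from outside. HCAR1, the lactate receptor that restrains lipolysis, had 27.6, 43.1 and 35.8 CPM at 360d, against 172, 119.8 and 157 CPM at 60d (log2 fold change -2.08, SE 0.33, adjusted p = 0.00188). TSHR, the receptor of thyrotropin, had 3.93, 5.47 and 4.36 CPM at 360d, against 15.3, 12.7 and 11.3 CPM at 60d (log2 fold change -1.51, SE 0.28, adjusted p = 0.00443). MET, the receptor of hepatocyte growth factor, had 3.99, 8.25 and 6.14 CPM at 360d, against 19.4, 22.6 and 29.8 CPM at 60d (log2 fold change -1.97, SE 0.37, adjusted p = 0.00487). STAR, which moves cholesterol into mitochondria, had 6.22, 13.2 and 5.34 CPM at 360d, against 68.3, 40.3 and 22.4 CPM at 60d (log2 fold change -2.4, SE 0.45, adjusted p = 0.00504). In each of them the highest 360d library lay below the lowest 60d library.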
